A study of Mus musculus with 6 samples.

Results

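Of the 331 numbered zinc finger genes (Zfp followed by a number) listed for mouse metaphase II eggs, 82 had a mean of at least 5 FPKM over the 6 libraries and are described here, out of 24254 named genes in all. Zfp36 and Zfp57 were left out by the rule that chose the members. Members were chosen by name and by their mean FPKM over all 6 libraries, with earlier results of these data known. The levels are thus a description. Near the threshold the mean depends on the difference between the groups, and 13 members passed only through the group where they were higher. Of the other 249 numbered genes, 78 had a mean from 1 to 5 FPKM, 160 had a lower mean above 0 and 11 were listed at 0 in every library. FPKM is a measure of RNA abundance in sequencing data that allows for the length of the transcript and the depth of the library, so it can be compared between genes.

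The number in a Zfp symbol is a cataloguing number and carries no function. Most of these genes encode proteins with C2H2 zinc fingers, in which pairs of cysteines and histidines hold a zinc ion and each finger contacts a few bases of DNA. A large subfamily also carries a KRAB domain, which recruits the corepressor Trim28 (KAP1) and, through it, the histone methyltransferase Setdb1, and which is best known for silencing transposable elements and imprinted regions. KRAB genes are young and arose by tandem duplication, so that many lie in clusters of close copies. The egg is transcriptionally silent from the end of growth until the embryonic genome is activated, and its RNA changes during maturation mainly by decay and by changes in poly(A) tail length.

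The series compared eggs that completed maturation in culture (in vitro maturation, IVM, 3 libraries) with eggs that matured in the animal (in vivo, IVO, 3 libraries). All 6 libraries were mouse oocytes at the metaphase II stage, and the labels used here give no strain, age, number of eggs per library or source of the replicates, so p-values measure the spread between these libraries, which may be technical. Depth in reads is unknown; relative to IVM replicate 1 the other 5 libraries had a depth of 0.779 to 0.914, read from the steps between low FPKM values. Of 11 oocyte markers, 11 were detected in every IVM library and 10 in every IVO library (Figla was listed at 0 in the IVO libraries), and their summed level was 14217 ± 148 FPKM in IVM eggs and 9919.9 ± 1039.8 FPKM in IVO eggs (SD, n = 3 each, as for all ± values of FPKM below). Most of the sum was Gdf9 (8310 FPKM in IVM eggs and 6745.5 FPKM in IVO eggs). Among the 10 oocyte markers tested, 7 were higher in IVM eggs, none was lower and 3 did not pass the test. Those higher included Npm2, at 25.5 ± 1.41 FPKM in IVM eggs and 1.39 ± 0.735 FPKM in IVO eggs. Zp3 stood at 211 ± 23.8 FPKM in IVM eggs and 16.5 ± 4.12 FPKM in IVO eggs, and Nlrp5 at 369 ± 3.28 and 38.2 ± 9.22 FPKM. Markers of cumulus and granulosa cells, 16 genes, summed to between 33.7 and 58.5 FPKM in IVM libraries and between 28.8 and 60.7 FPKM in IVO libraries, with Fshr and Lhcgr listed at 0 in every IVO library and Ptx3 and Tnfaip6 at 0 in IVM replicates 2 and 3. Of the 10 of these that were tested, Inha (16.9 ± 9.39 FPKM in IVM eggs and 3.90 ± 2.84 FPKM in IVO eggs) and Kitl were higher in IVM eggs, Tnfaip6, Inhba and Sdc4 were lower and 5 did not pass the test. Markers of the oviduct, 7 genes, summed to between 221 and 248 FPKM in IVM libraries and between 264 and 283 FPKM in IVO libraries, with 3 tested. Cdh1 (159 ± 14.0 FPKM in IVM eggs and 201 ± 18.3 FPKM in IVO eggs) and Spp1 (4.49 ± 6.67 FPKM in IVM eggs and 41.8 ± 22.4 FPKM in IVO eggs) were lower in IVM eggs and Cldn4 (74.3 ± 2.27 FPKM in IVM eggs and 28.8 ± 8.03 FPKM in IVO eggs) was higher. Ovgp1, Krt8, Krt18 and Epcam each averaged under 1 FPKM in both groups and were not tested, so most of the oviduct sum was Cdh1 and Cldn4. The 5 blood and immune markers summed to at most 2.51 FPKM in IVM libraries and at most 3.51 FPKM in IVO libraries. The part of these cells in the results below was not tested, and in bulk RNA fewer cells of a type and less RNA per cell cannot be told apart.

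Most members did not pass the test, and among those that did more were lower than higher in IVM eggs. Of the 82 members, 9 were higher in IVM eggs, 24 were lower and 49 did not pass the test (limma on log2(FPKM + 1), Benjamini-Hochberg adjusted p under 0.05 over the 7746 genes with a mean of at least 1 FPKM, a filter that all 82 members passed). That is 11.0% higher and 29.3% lower, beside 18.1% higher, 30.1% lower and 48.2% in either direction among all 4505 tested genes with a mean of at least 5 FPKM. A member that did not pass is not shown to be equal in the groups. Among all 7746 tested genes 20.6% were higher, 20.4% lower and 41% either. The share of members that were lower was near that of all genes above the same threshold, and the gap between 11.0% and 18.1% for those higher was not tested. The libraries of the groups did not overlap for 41 members, beside 59.7% of the 4505 genes and 53.5% of the 7746. The median log2 difference (IVM minus IVO) was -0.20 over members, with a range of -1.38 to 1.42, and -0.12 over the 4505 genes. With every library rescaled to the same summed FPKM, 11 members were higher and 19 were lower, beside 1053 higher and 996 lower of the 4505 genes, against 815 higher and 1355 lower as deposited. The medians were then -0.07 and 0.01, and without IVM replicate 3 the members' median was -0.13.

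**Figure D1:**
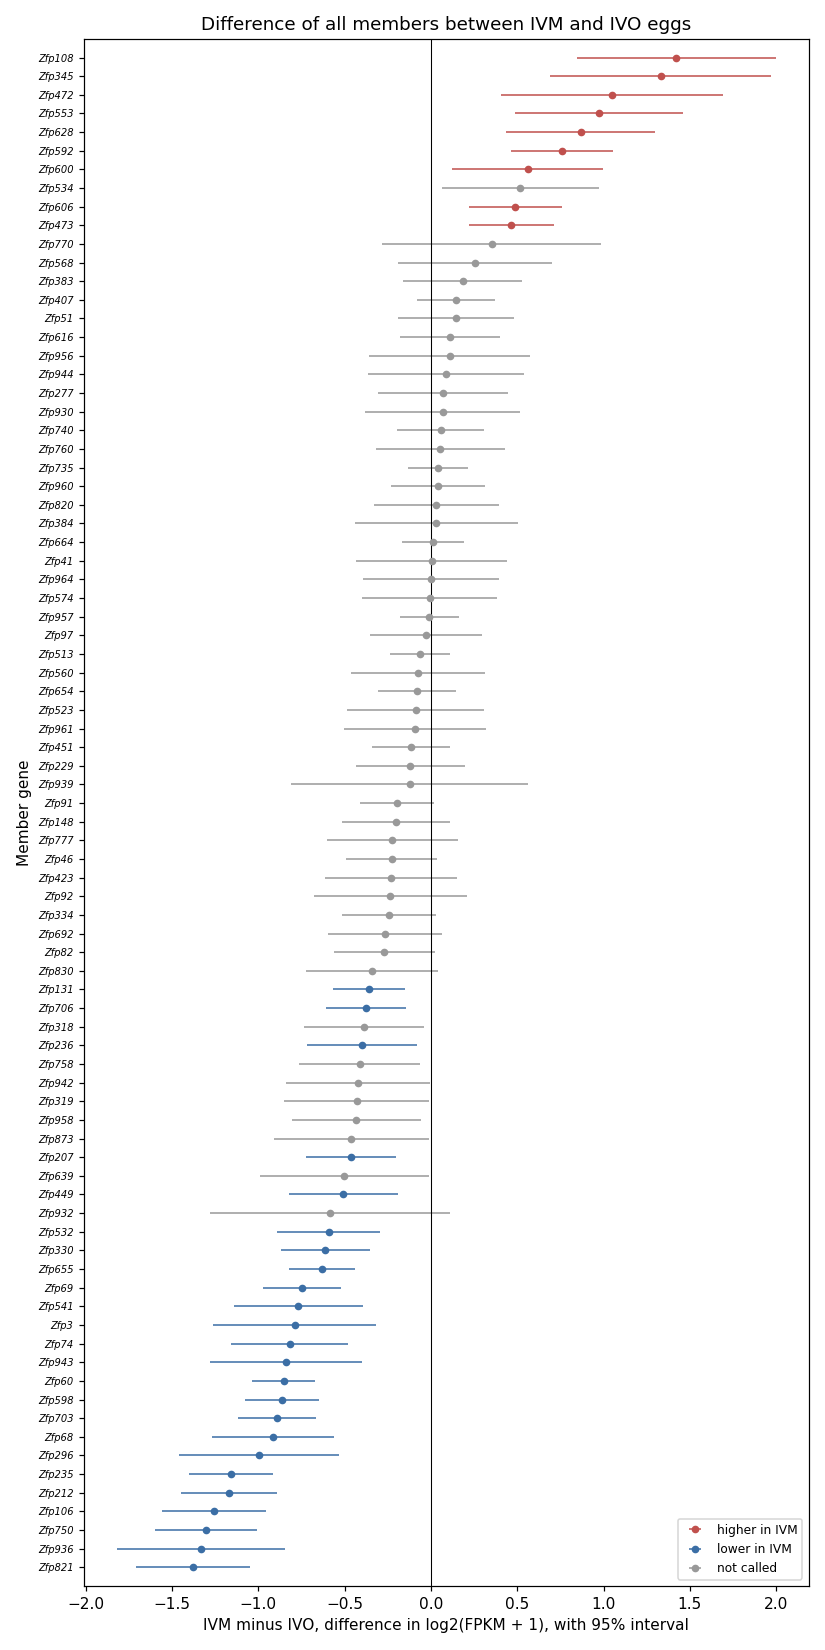
Difference between IVM and IVO eggs in log2(FPKM + 1) on the horizontal axis, with its 95% interval from limma, for the 82 members ordered from the largest rise at the top to the largest fall at the bottom (3 libraries per group). The 9 members called higher in IVM lie between 0.47 and 1.42, the 24 called lower lie between -1.38 and -0.36, and 49 in grey did not pass the test.

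The threshold of 5 FPKM cut through a continuous range of levels. Just inside it lay Zfp628, with a mean of 5.00 FPKM over the 6 libraries, Zfp932 with 5.01 FPKM and Zfp553 with 5.10 FPKM. Just outside it lay Zfp652 (2.60 ± 0.429 FPKM in IVM eggs and 7.00 ± 1.49 FPKM in IVO eggs), Zfp608 (5.41 ± 0.0939 FPKM in IVM eggs and 4.11 ± 0.833 FPKM in IVO eggs) and Zfp597 (4.88 ± 0.512 FPKM in IVM eggs and 4.53 ± 0.836 FPKM in IVO eggs). A mean under 5 FPKM in 1 of the groups was found for 13 members, which passed the threshold only through the group where they were higher. These 13 included 4 that were higher and 2 that were lower in IVM eggs, Zfp936 and Zfp943. The 69 members with at least 5 FPKM in both groups included 5 that were higher (7.25%) and 22 that were lower (31.9%) in IVM eggs. Among all 4505 tested genes with a mean of at least 5 FPKM over the 6 libraries, 18.1% were higher and 30.1% lower.

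The members together made up 1.00% ± 0.0125 of the summed FPKM of IVM eggs and 1.06% ± 0.0245 of that of IVO eggs. Their summed level was 3649, 3578 and 3577 FPKM in the IVM libraries, against 4267, 4274 and 4096 FPKM in the IVO libraries. Each IVM library thus held less than each IVO library. The summed FPKM of all genes was also lower, at 353438 to 364983 in the IVM libraries and 394233 to 402054 in the IVO libraries. The pool was uneven, since the 6 most abundant members held 55.3% ± 1.16 of it in IVM eggs and 49.9% ± 1.20 in IVO eggs. The level of the median member was 14.6 ± 0.692 FPKM in IVM eggs and 17.7 ± 0.516 FPKM in IVO eggs.

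Of the 6 most abundant members, 5 did not pass the test and Zfp655 was lower in IVM eggs. Zfp957, at chr14:79212355-79247369 on the minus strand (GRCm38, as for all positions below), was the most abundant. It had 616, 610.0 and 554 FPKM in the IVM libraries, against 611, 559 and 622 FPKM in the IVO libraries, and its groups overlapped. The protein translated from its annotated coding sequence, 567 residues long, held no C2H2 finger pattern and no KRAB pattern. The interval of its log2 difference was -0.18 to 0.16. Zfp664, with 9 fingers, had 470.1, 451 and 430.0 FPKM in the IVM libraries, against 467, 469 and 408 FPKM in the IVO libraries. Zfp513, whose human counterpart is linked to inherited retinal degeneration, had 352, 334 and 337 FPKM in the IVM libraries, against 376, 327 and 369.8 FPKM in the IVO libraries. Both sets of libraries overlapped, and the intervals of the log2 differences were -0.17 to 0.19 for Zfp664 and -0.24 to 0.11 for Zfp513. Exons of Zfp513 overlap Snx17 on the opposite strand, and Snx17 stood at 1.70 ± 0.514 FPKM in IVM eggs and 0.278 ± 0.306 FPKM in IVO eggs. With the trend of the differences with GC content removed, Zfp513 was lower in IVM eggs (log2 difference -0.30, adjusted p = 0.0132).

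Zfp655, a gene whose product was described as a partner of the signalling protein Vav, was lower in IVM eggs. It had 220.2, 208 and 192 FPKM in the IVM libraries, against 299.5, 318 and 344 FPKM in the IVO libraries, with no overlap (log2 difference -0.63 ± 0.08 (SE), limma, Benjamini-Hochberg adjusted p = 0.000519). Zfp616 and Zfp735 are neighbours on chromosome 11, at chr11:74069955-74087292 and chr11:73688778-73713798. Zfp616 averaged 247 ± 12.4 FPKM in IVM eggs and 231 ± 41.8 FPKM in IVO eggs, and the low IVO library, replicate 3, held 183 FPKM. Zfp735 averaged 153 ± 8.71 FPKM in IVM eggs and 148 ± 1.87 FPKM in IVO eggs. Neither passed the test, with intervals of -0.18 to 0.40 and -0.13 to 0.21.

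The 3′ ends of egg transcripts are of interest because maturation lengthens or shortens poly(A) tails through the cytoplasmic polyadenylation element, a U-rich motif bound by CPEB proteins. In the last 100 bases of the annotated transcripts, TTTTAT or TTTTAAT on the sense strand was found in 19 of the 77 members with an annotated 3′ UTR (24.7%), beside 27.5% of 4036 tested genes with a mean of at least 5 FPKM and 23.7% of 6866 tested genes. It was found in 2 of 9 members that were higher in IVM eggs, in 7 of 23 that were lower and in 10 of 45 that did not pass the test. A match is a description and not a site in use. The 30-base windows that hold both this motif and the poly(A) signal AATAAA are shown for 1 member that rose (Zfp473, chr7:44731500-44731529, minus strand), 1 that fell (Zfp449, chrX:56365640-56365669, plus strand) and for Zfp957 (chr14:79212365-79212394, minus strand) and Zfp560 (chr9:20345144-20345173, minus strand), which did not pass the test. They are written 5′ to 3′ with both motifs in capitals, and in Zfp449 the motifs overlap.
Zfp473: aaTTTTATgataaagacaagaAATAAAgtg
Zfp449: ttatacacggTTTTAATAAAgtggaaatgt
Zfp957: ataaatTTTTATtaaactAATAAAatttat
Zfp560: tttgttTTTTATtaaactAATAAAatttat
The Zfp957 and Zfp560 windows share an unbroken run of 25 bases that includes both motifs, although the genes lie on chromosomes 14 and 9. Among the 6866 3′ ends searched, these were the 2 that held the run. Their levels differ, with 594 ± 34.1 FPKM in IVM eggs and 597 ± 33.6 FPKM in IVO eggs for Zfp957 and 14.6 ± 1.43 FPKM in IVM eggs and 15.7 ± 3.32 FPKM in IVO eggs for Zfp560.

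Among the 9 members that were higher in IVM eggs, 5 carried a KRAB pattern, beside 38 of all 82 members, a difference that was not tested. The 3 with the largest log2 differences were all of this kind. Of these, Zfp108 and Zfp472 averaged 2.30 and 3.97 FPKM in IVO eggs and so were members only through their IVM level. Zfp108, with 12 fingers, had 5.39, 7.92 and 10.6 FPKM in the IVM libraries, against 1.56, 2.63 and 2.71 FPKM in the IVO libraries. Every IVM library lay above every IVO library, at 3.47 times the mean level (log2 difference 1.42 ± 0.25 (SE), limma, Benjamini-Hochberg adjusted p = 0.00229), and 11.9% of its 50-base words also occur in other transcripts. Zfp345, with 14 fingers on chromosome 2, had 11.3, 13.2 and 15.6 FPKM in the IVM libraries, against 4.33, 2.87 and 7.87 FPKM in the IVO libraries. Its groups did not overlap either (log2 difference 1.33 ± 0.28 (SE), limma, Benjamini-Hochberg adjusted p = 0.00538), and 30.6% of its transcript's 50-base words also occur in transcripts of other genes, so its reads could be split with close copies. Zfp472, with 12 fingers on chromosome 17, had 8.24, 9.54 and 8.32 FPKM in the IVM libraries, against 6.19, 3.69 and 2.04 FPKM in the IVO libraries. The IVO libraries were spread widely (log2 difference 1.05 ± 0.28 (SE), limma, Benjamini-Hochberg adjusted p = 0.0167), and the call was lost without IVM replicate 2 (adjusted p = 0.0565) or without IVM replicate 3 (adjusted p = 0.0526). Zfp606 had 29.2, 27.3 and 26.8 FPKM in the IVM libraries, against 17.1, 20.1 and 21.5 FPKM in the IVO libraries, a smaller difference between groups that did not overlap (log2 difference 0.49 ± 0.12 (SE), limma, Benjamini-Hochberg adjusted p = 0.0107), and it missed the threshold without IVM replicate 1 (adjusted p = 0.0506). Zfp600, the remaining KRAB member called higher, shares 85.0% of its 50-base words with other genes, so its value is uncertain, and its call was lost without each of IVM replicates 1 and 3 and IVO replicates 2 and 3 (adjusted p from 0.109 to 0.152).

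Of the 8 KRAB members that were lower in IVM eggs, Zfp936, Zfp212, Zfp235 and Zfp68 had the largest differences. Zfp936, with 11 fingers on chromosome 7, had 4.19, 3.90 and 4.80 FPKM in the IVM libraries, against 10.3, 10.2 and 17.5 FPKM in the IVO libraries. IVO replicate 3 stood above the other IVO libraries, and all of them lay above the IVM libraries (log2 difference -1.33 ± 0.21 (SE), limma, Benjamini-Hochberg adjusted p = 0.00136). Zfp936 averaged 4.30 FPKM in IVM eggs and so was a member only through its IVO level. Of its 50-base words 15.2% are shared with other transcripts. Zfp212, with 4 fingers, was more abundant, with 47.2, 48.3 and 51.5 FPKM in the IVM libraries, against 92.0, 122 and 123 FPKM in the IVO libraries. Its level in IVM eggs was 0.44 times that in IVO eggs (log2 difference -1.17 ± 0.12 (SE), limma, Benjamini-Hochberg adjusted p = 0.000162). Zfp235 had 14.7, 14.3 and 13.5 FPKM in the IVM libraries, against 31.0, 34.2 and 33.0 FPKM in the IVO libraries. Replicates lay close together in both groups, and the groups were well apart (log2 difference -1.16 ± 0.11 (SE), limma, Benjamini-Hochberg adjusted p = 8.71e-05). Zfp68 averaged 19.5 ± 1.21 FPKM in IVM eggs and 38.2 ± 7.95 FPKM in IVO eggs (adjusted p = 0.00178, limma), and its exons overlap a gene on the opposite strand. The other KRAB members called lower were Zfp60, Zfp943, Zfp74 and Zfp69, with log2 differences from -0.85 to -0.75. Over the 38 members with a KRAB pattern the median log2 difference was -0.11, with 5 higher (13.2%), 8 lower (21.1%) and 25 that did not pass the test. The shares over all 4505 tested genes with a mean of at least 5 FPKM were 18.1% and 30.1%. The summed level of these KRAB members was 952 ± 36.2 FPKM in IVM eggs and 1177 ± 42.2 FPKM in IVO eggs. As given above, the summed FPKM of all genes was also lower in IVM libraries.

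**Figure D2:**
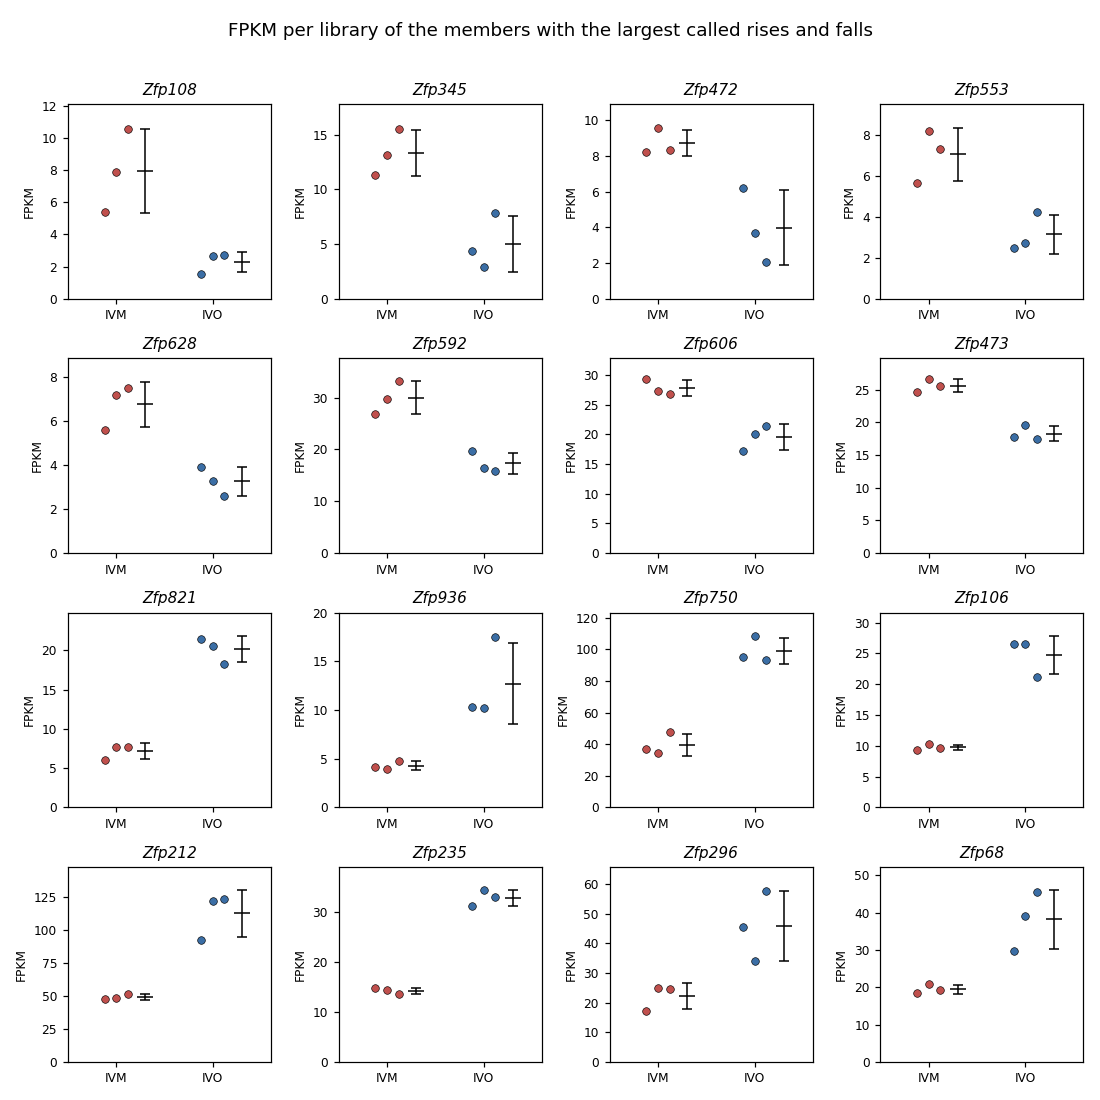
FPKM in each library for the 8 members with the largest called rises (upper 2 rows) and the 8 with the largest called falls (lower 2 rows), IVM in red on the left and IVO in blue on the right, with the mean and SD beside the points (n = 3 each) and every axis starting at 0. In each panel the IVM libraries lie wholly on 1 side of the IVO libraries, from Zfp108 (7.96 FPKM in IVM eggs, 2.30 FPKM in IVO eggs) to Zfp68 (19.5 FPKM in IVM eggs, 38.2 FPKM in IVO eggs). Zfp108, Zfp472, Zfp553 and Zfp628 averaged under 5 FPKM in IVO eggs and Zfp936 did in IVM eggs. These were members only through the other group.

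Zfp108 and Zfp235, the member with the largest rise and a member with one of the largest falls, are KRAB genes near each other on chromosome 7. Zfp108 averaged 2.30 FPKM in IVO eggs and was a member only through its IVM level. Of the 50-base words of Zfp235, 6.14% also occur in other transcripts, among them that of Zfp108. Zfp235 lies at chr7:24134169-24143241 and Zfp108 at chr7:24254794-24262445, both on the plus strand, with 111552 bases between them. The RefSeq start of Zfp235 used below lies upstream of that gene start. Their promoter windows from RefSeq (GRCm38.p6), 250 bases before to 50 bases after the annotated start, are shown because these genes moved in opposite directions. Zfp108 has its window at chr7:24254544-24254843 and Zfp235 at chr7:24132122-24132421, both on the plus strand, and the capitals in Zfp108 mark AATTGTAGT, the reverse complement of ACTACAATT, the core of the element that the factor Zfp143 (human ZNF143) binds.
Zfp108: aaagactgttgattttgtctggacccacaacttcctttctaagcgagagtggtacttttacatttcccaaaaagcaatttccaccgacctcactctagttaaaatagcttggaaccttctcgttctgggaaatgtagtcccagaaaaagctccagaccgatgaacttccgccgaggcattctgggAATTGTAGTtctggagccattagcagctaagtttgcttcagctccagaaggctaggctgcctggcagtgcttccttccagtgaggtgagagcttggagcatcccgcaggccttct
Zfp235: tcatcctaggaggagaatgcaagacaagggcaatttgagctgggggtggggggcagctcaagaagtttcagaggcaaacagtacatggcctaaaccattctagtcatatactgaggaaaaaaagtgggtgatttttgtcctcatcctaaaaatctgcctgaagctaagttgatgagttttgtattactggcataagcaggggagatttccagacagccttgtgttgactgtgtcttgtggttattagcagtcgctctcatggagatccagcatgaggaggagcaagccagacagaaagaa
The windows held 7 CpG dinucleotides in Zfp108 and 1 in Zfp235, beside a median of 18.5 over the 68 members with a RefSeq promoter and 7.0 over all 27025 genes with one. On either strand, ACTACAATT was found in 2 of the 68 member promoters (2.94%), in Zfp108 and in Zfp692, beside 0.433% of the 27025 promoters. Zfp692 did not pass the test (7.42 ± 0.315 FPKM in IVM eggs and 9.17 ± 1.14 FPKM in IVO eggs). The Zfp235 window held neither this motif nor any of the other 4 searched on both strands. Of these, the CCAAT box was found in 42.6% of member promoters (37.9% of all), the GC box GGGCGG in 52.9% (35.9% of all), the TATA box TATAAA in 2.94% (14.2% of all) and the cAMP response element TGACGTCA in 2.94% (1.88% of all). The 27025 promoters were not limited to genes expressed in eggs. The CpG counts and motif shares were thus not set beside genes of like level, and their differences were not tested.

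Members with C2H2 fingers but no KRAB or SCAN pattern included 4 that rose and 12 that fell among 38, with a median log2 difference of -0.20. Zfp553, with 12 fingers, had 5.65, 8.19 and 7.33 FPKM in the IVM libraries, against 2.49, 2.70 and 4.22 FPKM in the IVO libraries. No library overlapped between groups (log2 difference 0.97 ± 0.21 (SE), limma, Benjamini-Hochberg adjusted p = 0.00646), and an exon of a gene on the opposite strand overlaps it. Zfp628, which is required for sperm development in mice, had 5.57, 7.17 and 7.51 FPKM in the IVM libraries, against 3.91, 3.27 and 2.58 FPKM in the IVO libraries. It too was separated between groups (log2 difference 0.87 ± 0.19 (SE), limma, Benjamini-Hochberg adjusted p = 0.00637). Zfp553 and Zfp628 averaged 3.14 and 3.26 FPKM in IVO eggs and so were members only through their IVM level. Zfp592, whose human counterpart ZNF592 belongs to a chromatin complex with ZMYND8, was more abundant, with 26.9, 29.8 and 33.3 FPKM in the IVM libraries, against 19.7, 16.5 and 15.9 FPKM in the IVO libraries. The level in IVM eggs was 1.73 times that in IVO eggs (log2 difference 0.76 ± 0.13 (SE), limma, Benjamini-Hochberg adjusted p = 0.00191). Zfp473, whose human counterpart (ZFP100) takes part in the 3′-end processing of histone pre-mRNA with the U7 particle, had 24.6, 26.6 and 25.5 FPKM in the IVM libraries, against 17.8, 19.6 and 17.4 FPKM in the IVO libraries. Its difference was smaller but its replicates were tight (log2 difference 0.47 ± 0.11 (SE), limma, Benjamini-Hochberg adjusted p = 0.00869), and its exons overlap Vrk3 on the opposite strand, which stood at 0.767 ± 0.215 FPKM in IVM eggs and 1.25 ± 0.0282 FPKM in IVO eggs.

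The largest fall of all members on the log2(FPKM + 1) scale was that of Zfp821, which has 2 fingers and lies at chr8:109705546-109724932 on the plus strand. It had 5.99, 7.74 and 7.72 FPKM in the IVM libraries, against 21.5, 20.6 and 18.3 FPKM in the IVO libraries, and its level in IVM eggs was 0.36 times that in IVO eggs (log2 difference -1.38 ± 0.14 (SE), limma, Benjamini-Hochberg adjusted p = 0.000162). By the ratio of means Zfp936 fell further, to 0.34 times its IVO level. Zfp750, a regulator of epidermal differentiation, was among the abundant members, with 37.0, 34.6 and 47.7 FPKM in the IVM libraries, against 95.2, 108 and 93.4 FPKM in the IVO libraries. All IVM libraries lay below all IVO libraries (log2 difference -1.30 ± 0.13 (SE), limma, Benjamini-Hochberg adjusted p = 0.000127). Zfp106, an RNA-binding protein needed by motor neurons and muscle, had 9.36, 10.3 and 9.62 FPKM in the IVM libraries, against 26.6, 26.5 and 21.3 FPKM in the IVO libraries. It fell to 0.39 times the IVO level (log2 difference -1.26 ± 0.13 (SE), limma, Benjamini-Hochberg adjusted p = 0.000162), and 25.2% of its 50-base words also occur in other transcripts, among them one on the opposite strand. Zfp296, a partner of Klf4 in pluripotent cells, had 17.2, 25.0 and 24.5 FPKM in the IVM libraries, against 45.6, 34.1 and 57.7 FPKM in the IVO libraries. Its groups did not overlap (interval of the log2 difference -1.46 to -0.53, limma, Benjamini-Hochberg adjusted p = 0.00466), but its exons overlap Gemin7 on the opposite strand, which was higher in IVM eggs (17.1 ± 6.21 FPKM in IVM eggs and 7.40 ± 4.56 FPKM in IVO eggs), and without strand information reads of the overlap cannot be assigned.

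Of the 20 members in the list of genes with known roles, 6 are described here together for functions other than transcription, a grouping made after their values were seen. Of these, 3 were lower in IVM eggs and 3 did not pass the test, beside 30.1% lower among all tested genes with a mean of at least 5 FPKM. Zfp598, the ubiquitin ligase that marks ribosomes that have collided, had 39.1, 36.1 and 38.3 FPKM in the IVM libraries, against 67.8, 75.2 and 65.9 FPKM in the IVO libraries (log2 difference -0.86 ± 0.09 (SE), limma, Benjamini-Hochberg adjusted p = 0.000200). Zfp207 (BuGZ), a kinetochore and spindle protein that binds the checkpoint protein Bub3, had 28.0, 28.7 and 29.5 FPKM in the IVM libraries, against 37.8, 46.1 and 36.7 FPKM in the IVO libraries (log2 difference -0.46 ± 0.11 (SE), limma, Benjamini-Hochberg adjusted p = 0.0111). Groups did not overlap for either gene, and Zfp207 just missed the threshold with the libraries rescaled to the same sum (adjusted p = 0.0525). Zfp330, a nucleolar protein, averaged 13.8 ± 0.816 FPKM in IVM eggs and 21.6 ± 0.696 FPKM in IVO eggs (adjusted p = 0.00272, limma), with 31.3% of its 50-base words shared with other transcripts. Zfp91, a ubiquitin ligase, averaged 56.5 ± 3.14 FPKM in IVM eggs and 65.0 ± 4.41 FPKM in IVO eggs, and Zfp451, a SUMO ligase, averaged 27.0 ± 0.967 FPKM in IVM eggs and 29.3 ± 0.922 FPKM in IVO eggs. Neither passed the test, with intervals of -0.41 to 0.01 and -0.34 to 0.11 for the log2 difference. Zfp830, a nuclear protein needed by the early mouse embryo, averaged 6.37 ± 1.17 FPKM in IVM eggs and 8.27 ± 0.624 FPKM in IVO eggs and did not pass either (interval -0.72 to 0.04).

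Among the other members in the list of known roles, Zfp106, Zfp296 and Zfp655 (lower in IVM eggs) and Zfp592 (higher) are described above. The KRAB members of the list follow below. Of the regulators described here, 3 fell and 4 did not pass the test, beside 30.1% lower among all tested genes with a mean of at least 5 FPKM. Zfp703, a corepressor of the NET family whose exons overlap a gene on the opposite strand, had 36.4, 37.4 and 37.4 FPKM in the IVM libraries, against 71.5, 62.5 and 75.7 FPKM in the IVO libraries (log2 difference -0.89 ± 0.10 (SE), limma, Benjamini-Hochberg adjusted p = 0.000212). Zfp706, which acts in mouse embryonic stem cell self-renewal, had 34.2, 31.8 and 33.7 FPKM in the IVM libraries, against 43.9, 39.9 and 47.1 FPKM in the IVO libraries (log2 difference -0.38 ± 0.10 (SE), limma, Benjamini-Hochberg adjusted p = 0.0165). Zfp131, a factor with a BTB domain, had 84.3, 81.2 and 78.9 FPKM in the IVM libraries, against 111, 109 and 94.4 FPKM in the IVO libraries (log2 difference -0.36 ± 0.09 (SE), limma, Benjamini-Hochberg adjusted p = 0.0135). The groups of all 3 genes were apart, but the calls of Zfp706 and Zfp131 were lost without IVM replicate 2 (adjusted p = 0.0748 and 0.0523) and with the libraries rescaled to the same sum (adjusted p = 0.0865 and 0.0776). Zfp423, a regulator of fat and neural precursors, averaged 19.7 ± 1.38 FPKM in IVM eggs and 23.7 ± 5.48 FPKM in IVO eggs. Zfp318, needed for IgD expression in B cells, averaged 19.7 ± 1.01 FPKM in IVM eggs and 26.5 ± 5.15 FPKM in IVO eggs. IVO replicate 3 lay below the IVM libraries for Zfp423 and among them for Zfp318, at 18.0 and 20.6 FPKM, and without it both were lower in IVM eggs (adjusted p = 0.0297 and 0.00428). Zfp148, which binds GC-rich DNA, averaged 14.0 ± 1.94 FPKM in IVM eggs and 16.2 ± 0.995 FPKM in IVO eggs, and Zfp384 (CIZ), a factor of the nuclear matrix, averaged 6.66 ± 1.55 FPKM in IVM eggs and 6.47 ± 1.33 FPKM in IVO eggs. Their intervals were -0.51 to 0.11 and -0.44 to 0.50, and 16.8% of the 50-base words of Zfp384 are shared with other transcripts.

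The KRAB members in the list of genes with known roles did not pass the test. Zfp568, which represses a placental transcript of Igf2 in mice, had 62.5, 61.5 and 54.2 FPKM in the IVM libraries, against 58.8, 59.9 and 34.3 FPKM in the IVO libraries. IVO replicate 3 stood apart, below all others, and the log2 difference was 0.26 (interval -0.19 to 0.70), and -0.00165 without that library. Zfp932, which represses endogenous retroviruses in mouse embryonic stem cells, had 1.94, 4.58 and 5.11 FPKM in the IVM libraries, against 4.28, 6.13 and 7.99 FPKM in the IVO libraries. Its libraries overlapped and the interval of the log2 difference was wide (-1.28 to 0.11). The difference was -0.585, or -0.255 without IVM replicate 1, and with the replicate number as a block Zfp932 passed the test (adjusted p = 0.036). In addition, 55.5% of its 50-base words are shared with other transcripts, among them its close copy Gm15446, which was listed at 0 in every library. Zfp961 averaged 40.7 ± 0.645 FPKM in IVM eggs and 44.6 ± 13.7 FPKM in IVO eggs, with IVO replicate 2 at 60.4 FPKM, far above the other IVO libraries.

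The calls are given here by the number of fingers in the protein, and differences between the bins were not tested. Among all 4505 tested genes with a mean of at least 5 FPKM, 18.1% were higher and 30.1% were lower. Of the 17 members with 1 to 5 fingers, none was called higher and 8 were called lower (47.1%), with a median log2 difference of -0.36. The count of those higher was also 0 at an unadjusted p under 0.05 from limma and by the authors' deposited q-values. Of the 18 with 6 to 10 fingers, 1 was higher (5.56%) and 5 were lower (27.8%, median -0.10). Of the 42 with 11 or more, 8 were higher and 8 were lower (19.0% each, median -0.05). Of those 8 that were higher, 4 (Zfp108, Zfp472, Zfp553 and Zfp628) averaged under 5 FPKM in IVO eggs and so were members only through their IVM level. Of those 8 that were lower, Zfp936 and Zfp943 were members only through their IVO level. Among the 32 members of that bin with at least 5 FPKM in both groups, 4 were higher and 6 were lower, and among the 16 such members with 1 to 5 fingers none was higher and 8 were lower. Over the 81 members with a coding sequence, the finger count and the log2 difference had a Pearson correlation of 0.284 and a Spearman correlation of 0.32, given as a description, since genes share libraries and are not replicates. Over the 68 with at least 5 FPKM in both groups these were 0.309 and 0.356. The members without a finger pattern were Zfp957, Zfp750, Zfp703 and Zfp330, of which 3 were lower. Transcript length and GC content had weaker correlations with the difference (0.014 and -0.13, Pearson, 82 members), and mean level had -0.201. Zfp449, the single member with a SCAN pattern, averaged 33.7 ± 1.91 FPKM in IVM eggs and 48.7 ± 8.62 FPKM in IVO eggs and was lower (adjusted p = 0.0173, limma).

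**Figure D3:**
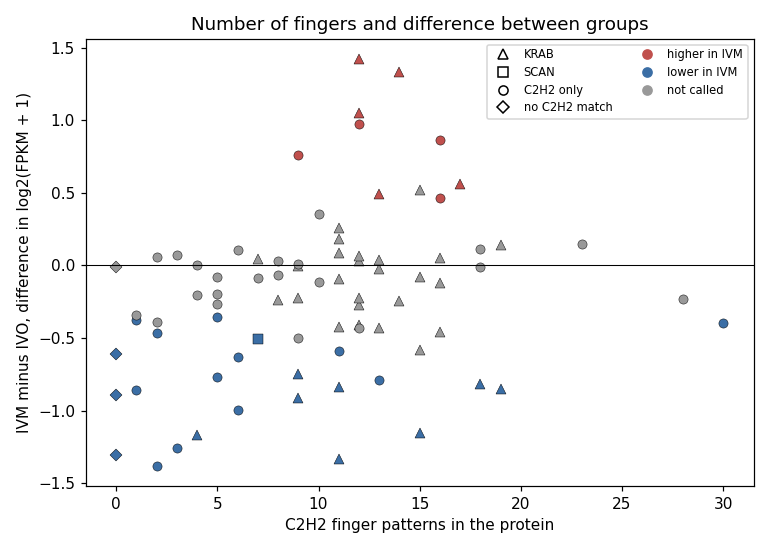
Difference between IVM and IVO eggs in log2(FPKM + 1) against the number of C2H2 finger patterns in the translated coding sequence, 1 point per member (81 members). Shape gives the domain class and colour the call. Members called higher in IVM (red) all have 9 or more fingers, and members with 1 to 5 fingers lie mostly below 0.

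Genes with fingers outside the numbered Zfp names, and numbered genes below the threshold, give a background for these counts. Of 79 other genes with 2 or more C2H2 fingers and a mean of at least 5 FPKM, 7 were higher (8.86%) and 38 were lower (48.1%) in IVM eggs, with a median log2 difference of -0.33. The 78 numbered Zfp genes with a mean from 1 to 5 FPKM had 12 higher (15.4%) and 8 lower (10.3%), with a median of 0.09. These are descriptions, and the differences between the sets were not tested. By level, of 29 members with a mean from 5 to 10 FPKM, 5 were higher and 4 were lower, beside 22.1% higher and 18.6% lower among all tested genes of that level. Of 17 members with at least 50 FPKM, none was higher and 7 were lower, beside 12.8% and 38.8%, and again none was higher at an unadjusted p under 0.05 from limma or by the authors' deposited q-values.

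Members were spread unevenly over the chromosomes. Chromosome 7 held 17 members, and 6 of the 9 rises (Zfp108, Zfp553, Zfp628, Zfp592, Zfp606 and Zfp473) were among them, as were 6 of the 24 falls. Zfp108, Zfp553 and Zfp628 averaged under 5 FPKM in IVO eggs and so were members only through their IVM level. Of the 13 members of chromosome 7 with at least 5 FPKM in both groups, 3 were higher and 5 were lower. Of the 288 tested genes of chromosome 7 with a mean of at least 5 FPKM, 17.7% were higher and 34.0% were lower. Chromosome 17 held 14 members, of which 1 was higher and 2 were lower. Of its 183 tested genes with a mean of at least 5 FPKM, 20.8% were higher and 26.2% were lower. Within 500 kb of another member lay 23 members, in 7 groups. In none of these groups did all members pass the test in the same direction.

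**Figure D4:**
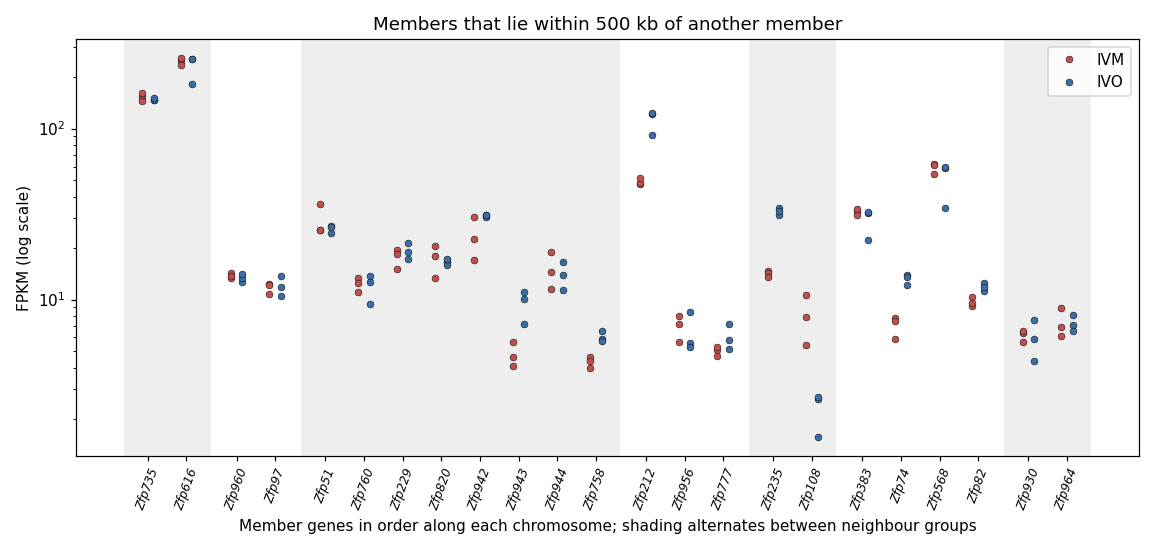
FPKM per library (log scale) of the 23 members that lie within 500 kb of another member, in order along each chromosome, IVM in red and IVO in blue beside it, with shading that alternates between the 7 groups. Neighbours differ in level and in direction, as Zfp235 (below in IVM) and Zfp108 (above in IVM) show, and in the group of 8 on chromosome 17 Zfp943 was the 1 member called lower.

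The largest group spans chr17:21450374-22377281 and holds Zfp51, Zfp760, Zfp229, Zfp820, Zfp942, Zfp943, Zfp944 and Zfp758. Their log2 differences ranged from -0.84 to 0.14 with a median of -0.04, and Zfp943 was the only member of the group that passed the test. Zfp943 had 4.10, 4.62 and 5.66 FPKM in the IVM libraries, against 10.1, 11.1 and 7.16 FPKM in the IVO libraries (log2 difference -0.84 ± 0.20 (SE), limma, Benjamini-Hochberg adjusted p = 0.00838). The group contains a duplicated arrangement in which a gene on the minus strand and a gene on the plus strand start back to back, with 95 bases between the starts of Zfp942 and Zfp943 and 63 bases between those of Zfp944 and Zfp758. The RefSeq promoter windows (GRCm38.p6, plus strand) of the plus-strand genes are shown because they are almost the same sequence, for Zfp943 at chr17:21962309-21962608 and for Zfp758 at chr17:22361213-22361512. Capitals mark CCGCCC, the reverse complement of the GC box GGGCGG.
Zfp943: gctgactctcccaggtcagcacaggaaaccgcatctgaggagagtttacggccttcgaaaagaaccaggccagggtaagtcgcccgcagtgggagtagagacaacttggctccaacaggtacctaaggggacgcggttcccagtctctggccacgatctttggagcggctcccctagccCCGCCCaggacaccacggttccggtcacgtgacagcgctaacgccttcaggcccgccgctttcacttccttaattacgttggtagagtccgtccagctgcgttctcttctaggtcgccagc
Zfp758: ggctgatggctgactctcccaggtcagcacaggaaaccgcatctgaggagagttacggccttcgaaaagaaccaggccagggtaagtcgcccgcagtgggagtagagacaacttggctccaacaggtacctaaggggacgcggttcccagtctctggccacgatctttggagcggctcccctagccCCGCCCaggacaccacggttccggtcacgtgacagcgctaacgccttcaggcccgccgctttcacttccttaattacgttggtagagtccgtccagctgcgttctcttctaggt
Aligned, the windows were identical at 292 of 292 aligned positions, with 1 gap position between them, and those of the minus-strand genes were identical at 274 of 275. Zfp758 had 4.60, 4.35 and 3.98 FPKM in the IVM libraries, against 5.90, 5.76 and 6.57 FPKM in the IVO libraries. Its groups did not overlap, but it missed the threshold (log2 difference -0.41, interval -0.76 to -0.07, limma, adjusted p = 0.0585). Zfp943 and Zfp758 averaged 4.80 and 4.31 FPKM in IVM eggs and so were members only through their IVO level. The minus-strand genes were more abundant, with 22.7, 17.1 and 30.4 FPKM in the IVM libraries, against 30.3, 31.4 and 31.0 FPKM in the IVO libraries, for Zfp942, and 14.6, 11.5 and 18.9 FPKM in the IVM libraries, against 11.4, 16.6 and 13.9 FPKM in the IVO libraries, for Zfp944. Neither passed the test, with intervals of -0.84 to -0.01 and -0.36 to 0.54.

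In the group of 4 at chr7:29908223-30072900, Zfp74 was lower in IVM eggs while Zfp383, Zfp568 and Zfp82 did not pass the test. Zfp82 shares 94.4% of its 50-base words with a transcript on the same strand, so its value cannot be assigned to it alone. Zfp960 and Zfp97, neighbours on chromosome 17, share 84.5% and 83.1% of their 50-base words, with other transcripts, among them each other. Their levels were 13.8 ± 0.445 FPKM in IVM eggs and 13.4 ± 0.741 FPKM in IVO eggs for Zfp960 and 11.8 ± 0.853 FPKM in IVM eggs and 12.1 ± 1.63 FPKM in IVO eggs for Zfp97, and how reads were divided between such copies is not given in the sources used here. In all, 29 members shared at least 10% of their 50-base words or overlapped an exon of another gene. The other 53 members had 4 rises (7.55%), 16 falls (30.2%) and a median log2 difference of -0.23. The shares over all 4505 tested genes with a mean of at least 5 FPKM were 18.1% and 30.1%.

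Genes of the corepressor machinery through which KRAB proteins act were called at shares near those of all genes. Of 37 listed genes, 31 were tested, and 8 were higher (25.8%), 7 were lower (22.6%) and 16 did not pass the test, beside 20.6% higher and 20.4% lower among all 7746 tested genes. The median log2 difference was -0.02 over the list and -0.02 over all tested genes. Trim28, which KRAB domains bind, had 76.5, 66.2 and 72.8 FPKM in the IVM libraries, against 99.2, 93.0 and 83.2 FPKM in the IVO libraries (log2 difference -0.35 ± 0.10 (SE), limma, Benjamini-Hochberg adjusted p = 0.0212). Setdb1, the methyltransferase that Trim28 recruits, had 8.24, 8.36 and 8.29 FPKM in the IVM libraries, against 12.2, 15.0 and 14.0 FPKM in the IVO libraries (log2 difference -0.66 ± 0.13 (SE), limma, Benjamini-Hochberg adjusted p = 0.00452). Both were lower in IVM eggs with no overlap between groups, and these genes were named for their role. The call of Trim28 was lost with the libraries rescaled to the same sum (adjusted p = 0.118), with upper quartile scaling (0.0597), with quantile normalization (0.0628), with no intensity trend (0.065) and without each of IVM replicates 2 and 3 and IVO replicates 1 and 2 (adjusted p from 0.0538 to 0.0982). The largest difference in the list was that of Dnmt1, the maintenance DNA methyltransferase, with 118, 109 and 101 FPKM in the IVM libraries, against 34.9, 13.8 and 14.3 FPKM in the IVO libraries (log2 difference 2.46 ± 0.30 (SE), limma, Benjamini-Hochberg adjusted p = 0.000298). Dnmt3l, the cofactor of DNA methylation in growing oocytes, averaged 13.3 ± 2.17 FPKM in IVM eggs and 2.68 ± 0.535 FPKM in IVO eggs, and Suv39h1, a histone methyltransferase, averaged 2.19 ± 0.650 FPKM in IVM eggs and 0.805 ± 0.0857 FPKM in IVO eggs. Both were higher in IVM eggs (adjusted p = 8.70e-05 and 0.0139, limma), but with quantile normalization the call of Suv39h1 was lost (log2 difference 0.489, against 0.804 as deposited, adjusted p = 0.0772). Chd4, a remodeller of the NuRD complex, fell to 5.39 ± 0.607 FPKM in IVM eggs, against 15.9 ± 1.03 FPKM in IVO eggs (adjusted p = 0.000129, limma). Without IVM replicate 2 the counts over the list were 5 higher and 4 lower, and with the libraries rescaled to the same sum 10 higher and 4 lower.

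Replicates of the members were closer together in IVM than in IVO eggs. The median coefficient of variation over members was 7.53% in IVM eggs (1.27% to 43.8%) and 12.9% in IVO eggs (1.26% to 52.7%), and this difference was not tested. IVO replicate 3 was the lowest of its group for 43 of the 82 members, beside 22 for IVO replicate 1 and 17 for IVO replicate 2. These values cover the members alone and are not set beside all tested genes. They are thus not shown to be particular to the members. Without IVO replicate 3, 8 members were higher and 29 were lower. In the authors' deposited table, 10 members had a q-value under 0.05 with a higher mean in IVM eggs and 30 with a lower mean. All 33 members called by limma were among these 40, and the other 7 were called by the authors' deposited table alone. In the same deposited table no member had a q-value under 0.05 between libraries of the same group, in 6 such comparisons, and the lowest such q-value was 0.818.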

How the data were processed

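Libraries were assigned to IVM (3) or IVO (3) by their culture label. The deposited table holds, per the file headers, an FPKM value per gene and library. It also holds the authors' p-values and q-values of the comparison of the groups and of single libraries. The build was mm9 per the submitters' processing notes, but the deposited loci of 82 of 82 members overlapped the gene of the same name in GRCm38, so positions printed are those of the GENCODE annotation of GRCm38. Aligner, counting tool and strandedness: not given in the sources used here. In addition, 1 emptied line of the table was skipped.

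The test was limma (3.58.1, run in R 4.3.3), two-sided and with a variance trend, applied to log2(FPKM + 1) of the 7746 genes averaging at least 1 FPKM, with Benjamini-Hochberg adjustment over all of them and a call at an adjusted p under 0.05. Log2 differences on this scale understate the change of low genes. FPKM values are not counts, so no count test was run and no counting interval can be given. The procedure was tested on simulated data. The replicate numbers were not taken to pair the libraries.

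Finger, KRAB and SCAN patterns were searched in the translated longest coding sequence of each gene, and degenerate domains would be missed. Sharing is the percent of a transcript's 50-base words found in transcripts of other genes, and 10% or more was taken as uncertain. Promoters are from RefSeq (GRCm38.p6), found for 68 members.

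The members and gene lists were chosen with earlier results of these data known. Named members are the 8 largest called rises and 8 largest called falls with groups that did not overlap, the 6 most abundant, those in a list of 40 genes with known roles (20 were members), and those next to the threshold. From the corepressor list the 4 largest called differences were named. Other genes are named as neighbours, copies, holders of a sequence, markers or called members of a class, after their values were seen. Alternatives covered the pseudocount, the filter, scaling, the variance model, library weights, omission of each library, a replicate block, length and GC trends, thresholds and the authors' q-values. Members without shared sequence or overlap were counted separately, an alternative added after the data were seen.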

Additional observations from a re-analysis of the deposited data

How the results depend on the processing

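Depth in reads is unknown, each group has 3 libraries, and the authors' scaling between libraries is not stated, so differences hold relative to that scaling. Rescaling to the same sum moved the median log2 difference of all tested genes to 0.10, against -0.02 as deposited. The 33 members called kept their direction under each alternative fitted, and 24 of them passed the test under each. The median over members was -0.0657 with the same sum, -0.12 with upper quartile scaling and -0.28 with the GC trend removed, and -0.22 to -0.13 with 1 library left out. With 1 library left out, 7 to 9 members were higher and 20 to 29 lower. Members higher numbered 5 among those with a mean of at least 5 FPKM in both groups and 4 among those without shared sequence or overlap. In the corepressor list 4 genes were lower with the same sum and 11 with the GC trend removed, and 4 were higher and 4 lower at an adjusted p under 0.01. With 1 library left out, 5 to 8 of the list were higher and 4 to 8 lower.

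Of 38 named members, 20 kept direction and side of the threshold under all 18 alternatives. Those that changed sign were not called. With the same sum the log2 difference was for Zfp957 0.132, Zfp513 0.0759, Zfp961 0.046 and Zfp451 0.0209. With upper quartile scaling the log2 difference was for Zfp957 0.0796 and Zfp513 0.0237. With quantile normalization the log2 difference was for Zfp957 0.13, Zfp513 0.0825, Zfp961 0.0403 and Zfp384 -0.0694. With array weights the log2 difference was for Zfp957 0.039 and Zfp664 -0.00577. With the length trend removed the log2 difference was for Zfp664 -0.0259, Zfp735 -0.0078 and Zfp384 -0.0537. With the GC trend removed the log2 difference was for Zfp664 -0.0303 and Zfp384 -0.146. With 1 library left out it ranged from -0.0557 to 0.0443 for Zfp664, from -0.0998 to 0.199 for Zfp384, from -0.0559 to 0.0393 for Zfp957, from -0.00019 to 0.0816 for Zfp735, from -0.237 to 0.143 for Zfp961, from -0.0492 to 0.192 for Zfp616 and from -0.00165 to 0.392 for Zfp568. The cause of these changes was not tested.

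The calls of Zfp472 (adjusted p = 0.0529 with no filter), Zfp131 (0.0516 without the intensity trend) and Zfp706 (0.0684 with quantile normalization) were also lost in the settings named, and Zfp600 lost its call in 5 settings that kept every library (0.0503 to 0.0972). Zfp513 passed with the GC trend removed (0.0132), Zfp830 with the length trend removed (0.0371) and Zfp318 with array weights (0.0186) and with the GC trend removed. Same-numbered libraries had correlations of deviations of 0.0777, 0.0599 and 0.09, none over 0.1, though each library correlated best with its own number. With the replicate block 9 members were higher and 25 lower, the median over members was -0.201, and Zfp932 passed (adjusted p = 0.036).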
